A study of Mus musculus with 8 samples.

Results

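The 10 genes described here write, copy, read and remove DNA methylation, or guard it at imprinted loci: Dnmt1, Dnmt3a, Dnmt3b, Dnmt3l, Uhrf1, Trim28, Ctcf, Tdg, Tet1 and Zfp57. They were chosen by name, and every array probe annotated to them was taken. Of the 10 genes, 7 had at least 1 named probe, and these genes were read by 10 of the 25697 probes of the array. Dnmt3a, Tet1 and Zfp57 had no probe named to them here, so their levels were not analysed here. All 10 probes were detected on all 8 arrays and were tested.

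Methylation of cytosine in CG dinucleotides is laid down by the de novo enzymes DNMT3A and DNMT3B with the catalytically inactive cofactor DNMT3L. It is copied after DNA replication by DNMT1, which UHRF1 recruits to hemimethylated DNA. At imprinted loci, where the parental alleles differ in methylation, ZFP57 and TRIM28 protect the methylated allele in early mouse embryos and ES cells, and CTCF binds the unmethylated maternal copy of the control region between Igf2 and H19. TET1 oxidises methylcytosine and TDG excises oxidised forms.

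Embryonic stem (ES) cells of B6D2F1 hybrid mice were profiled on Illumina bead arrays in 4 groups of 2 arrays each. In the first, called H19-labelled here, parthenogenetic ES cells are labelled as having H19 expression down-regulated, and in the second, called Igf2-labelled, parthenogenetic ES cells are labelled as overexpressing Igf2. The other groups are unmodified parthenogenetic ES cells, which derive from oocytes and carry only maternal genomes, and normal ES cells, which derive from embryos. The labels do not say how the lines were modified, how many clones they hold or whether feeder cells were present, and the 2 arrays of a group are called biological replicates without naming separate cultures, so the p-values reflect only how far these arrays differ, which may be technical.

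Median intensity per array ran between 172.1 and 196.7 units, and 47.1% to 49.5% of probes were detected. All 15 ES cell markers with a probe were detected on every array, with a mean log2 intensity of 12.57 to 12.87. The replicates of the H19-labelled, Igf2-labelled and parthenogenetic groups had 21, 20 and 21 probes apart by more than 1 on the log2 scale, but the normal arrays had 1027, and their mean over 29 fibroblast markers was 11.88 on normal replicate 1 and 10.49 on normal replicate 2. The normal arrays are therefore given apart, and the comparisons among the other groups were fitted without them. Igf2 averaged 15.55 on Igf2-labelled arrays and 15.60 on parthenogenetic arrays (change -0.05, limma adjusted p = 0.723), so its probe showed no rise where one is labelled. The parthenogenetic level was already near the top of the scale, as the highest unnormalized signal on any array was 64070 to 67905 units. A rise may therefore not have been readable, and the label is not contradicted. No probe was named H19.

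The start sites of the 3 genes that passed a test below are shown because CG dinucleotides, the sites of this methylation, are unevenly spread there. Each line holds the 250 bases before a RefSeq start site (assembly GRCm38.p6, plus strand), 5′ to 3′, with CG dinucleotides in capitals. The array files name no genome build, and which start site was used was not analysed here.
Dnmt3b, chr2:153649199-153649448: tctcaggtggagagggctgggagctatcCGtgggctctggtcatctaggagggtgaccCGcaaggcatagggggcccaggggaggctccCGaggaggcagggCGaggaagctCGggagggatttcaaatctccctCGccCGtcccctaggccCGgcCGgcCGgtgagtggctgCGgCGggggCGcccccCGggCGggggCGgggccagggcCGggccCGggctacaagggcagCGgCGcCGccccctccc
Dnmt3l start 1, chr10:78042037-78042286: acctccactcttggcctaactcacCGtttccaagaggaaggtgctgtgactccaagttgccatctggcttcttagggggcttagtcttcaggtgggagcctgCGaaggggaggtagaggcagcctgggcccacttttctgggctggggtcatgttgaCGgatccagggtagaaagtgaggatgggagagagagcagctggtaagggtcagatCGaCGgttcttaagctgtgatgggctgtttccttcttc
Dnmt3l start 2, chr10:78049592-78049841: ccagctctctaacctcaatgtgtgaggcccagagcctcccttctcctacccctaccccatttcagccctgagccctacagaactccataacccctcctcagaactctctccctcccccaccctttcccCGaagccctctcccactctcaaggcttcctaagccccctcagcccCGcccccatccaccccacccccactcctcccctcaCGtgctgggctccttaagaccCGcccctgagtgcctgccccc
Dnmt3l start 3, chr10:78055085-78055334: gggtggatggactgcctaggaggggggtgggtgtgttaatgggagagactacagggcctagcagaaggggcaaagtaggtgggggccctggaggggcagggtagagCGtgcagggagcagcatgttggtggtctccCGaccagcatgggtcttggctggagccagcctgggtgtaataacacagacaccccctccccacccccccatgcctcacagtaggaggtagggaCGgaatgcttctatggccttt
Uhrf1 start 1, chr17:56303087-56303336: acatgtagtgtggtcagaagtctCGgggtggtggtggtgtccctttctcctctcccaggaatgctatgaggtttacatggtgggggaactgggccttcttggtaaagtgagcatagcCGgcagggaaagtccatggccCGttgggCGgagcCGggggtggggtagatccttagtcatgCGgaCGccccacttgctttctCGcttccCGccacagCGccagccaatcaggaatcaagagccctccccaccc
Uhrf1 start 2, chr17:56304063-56304312: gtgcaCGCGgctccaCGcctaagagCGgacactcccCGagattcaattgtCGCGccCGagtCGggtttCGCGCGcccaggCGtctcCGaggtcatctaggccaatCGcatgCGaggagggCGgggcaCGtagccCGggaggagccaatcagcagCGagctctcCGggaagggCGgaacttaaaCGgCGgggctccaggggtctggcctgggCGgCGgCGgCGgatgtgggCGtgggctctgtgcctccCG

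The Dnmt3b window held 21 CG dinucleotides, and 83.7% of the 32851 RefSeq promoter windows of that length held fewer. The Dnmt3l windows held 5, 4 and 3, close to or below the median of 6 over all windows. Those of Uhrf1 held 10 and 30, and 94.1% of windows held fewer than its second. The GC box GGGCGG, which itself contains a CG and was searched on both strands, occurred 3 times in the Dnmt3b window, 2 times at the second Dnmt3l start, 1 time and 3 times at the Uhrf1 starts, and in 32.7% of all windows. The E2F letters TTTCCCGC and TTTGGCGC (0.895% and 0.417% of windows, both strands) and the octamer ATTTGCAT (1.60%) were in none of the 6 windows. All 10 genes had an entry in this table.

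Among the de novo factors, Dnmt3b and Dnmt3l moved in opposite directions. The brighter Dnmt3b probe read 12.80 and 12.78 on the H19-labelled arrays, 13.14 and 13.18 on the Igf2-labelled arrays, 13.65 and 13.71 on the parthenogenetic arrays, and 13.24 and 13.97 on the normal arrays, in log2 intensity. The H19-labelled arrays were lowest, the Igf2-labelled arrays next and the parthenogenetic arrays above both, with no overlap. The parthenogenetic pair lay between the normal arrays, which spanned 0.73. A dimmer probe, annotated to another Dnmt3b transcript, read 7.84 and 7.73, 8.05 and 7.99, 8.60 and 8.66, and 8.11 and 9.30 in the same order of groups. It ranked the H19-labelled, Igf2-labelled and parthenogenetic groups as the brighter probe did, and again the parthenogenetic pair lay between the normal arrays.

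Against parthenogenetic arrays, Dnmt3b was 0.539-fold as high on H19-labelled arrays, a log2 change of -0.89 (SE 0.07, limma adjusted p = 0.000664), and the dimmer probe changed by -0.84 (adjusted p = 0.000836). On Igf2-labelled arrays it fell by 0.52 (SE 0.07, adjusted p = 0.0105), and the dimmer probe changed by -0.61 (adjusted p = 0.00865). The H19-labelled arrays were also below the Igf2-labelled arrays by the brighter probe, with a change of -0.37 (SE 0.07, adjusted p = 0.016). The dimmer probe's change there was -0.23 (95% interval -0.42 to -0.05, adjusted p = 0.0834). With the normal arrays in the fit, which widens the shared spread, these changes of the brighter probe had adjusted p-values of 0.0752, 0.452 and 0.489. Without either Igf2-labelled or either parthenogenetic array, the fall on Igf2-labelled arrays did not pass (adjusted p up to 0.067), and the difference between the modified lines did not pass without any 1 of their 4 arrays (up to 0.0833).

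**Figure D1:**
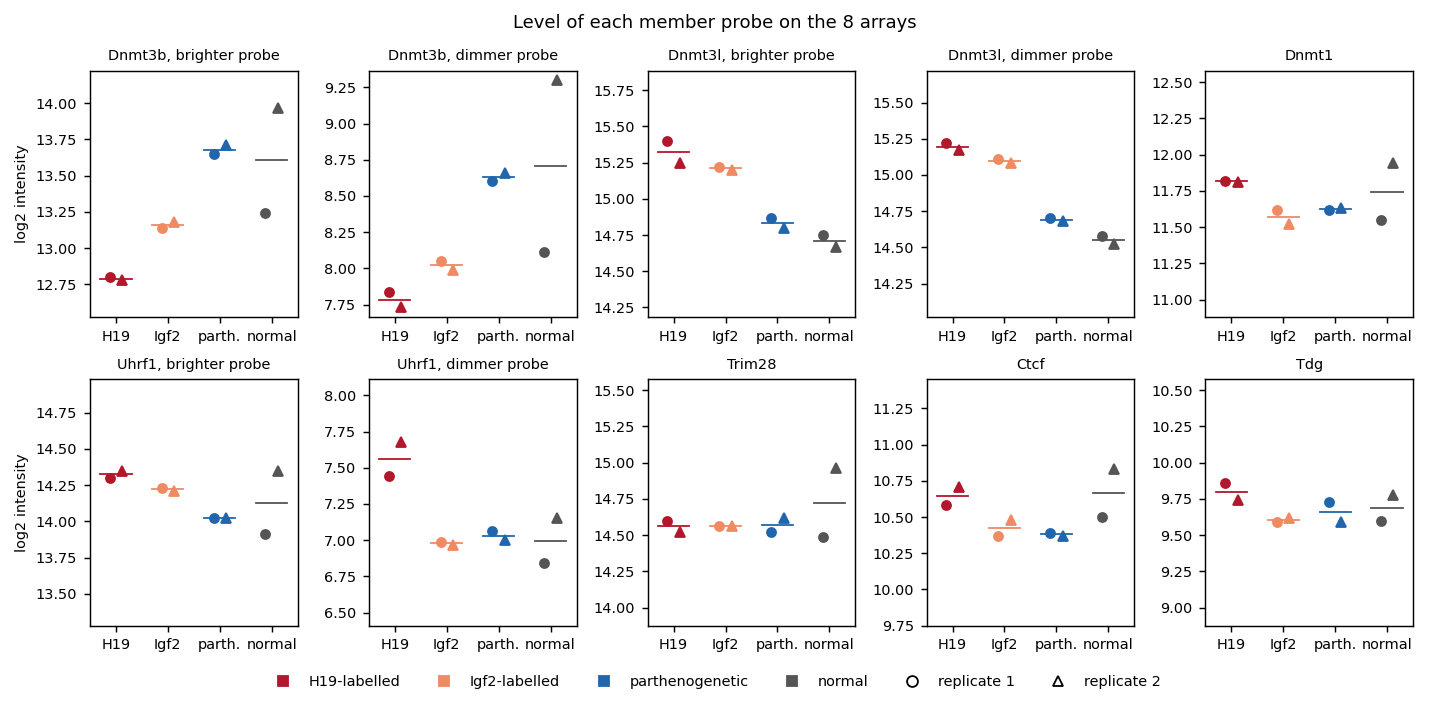
Log2 intensity of each of the 10 probes on each of the 8 arrays, with 1 panel per probe. Points are single arrays and bars are group means, with H19-labelled, Igf2-labelled and parthenogenetic arrays to the left of the normal arrays. Dnmt3b is lowest and Dnmt3l highest on the H19-labelled arrays, and the normal arrays of most probes lie far apart.

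Dnmt3l, which stimulates the DNMT3 enzymes without methylating DNA itself, was higher in both modified lines than in parthenogenetic ES cells. Its brighter probe read 15.40 and 15.25 on H19-labelled arrays, 15.22 and 15.20 on Igf2-labelled arrays, 14.87 and 14.80 on parthenogenetic arrays, and 14.75 and 14.67 on normal arrays. Every array of the modified lines was above every parthenogenetic array, and every parthenogenetic array was above both normal arrays. The other probe read 15.22 and 15.17, 15.11 and 15.08, 14.70 and 14.68, and 14.58 and 14.52 in the same order of groups. The normal arrays differed by only -0.08 and -0.05 in these probes (replicate 2 minus replicate 1), less than in any other probe of the set. Unnormalized, the brighter probe ran between 26648 and 44194 units, while the highest signal on any array was 64070 to 67905 units.

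Against parthenogenetic arrays, Dnmt3l rose by 0.49 on H19-labelled arrays (SE 0.08, limma adjusted p = 0.00622), or 1.40-fold, and by 0.50 in the other probe (adjusted p = 0.00294). On Igf2-labelled arrays the rises were 0.37 (SE 0.08, adjusted p = 0.0422) and 0.41 (SE 0.07, adjusted p = 0.0205). The H19-labelled and Igf2-labelled arrays differed by 0.11 (95% interval -0.09 to 0.31, adjusted p = 0.373). With the normal arrays in the fit, the brighter probe had adjusted p-values of 0.0601 and 0.235 against parthenogenetic arrays, and the other probe 0.0442 and 0.164. The rise on Igf2-labelled arrays passed in the brighter probe under 5 of 16 other settings, and leaving out any 1 of the 6 arrays took its adjusted p to between 0.0552 and 0.167.

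The maintenance factors were less uniform. Uhrf1, which brings DNMT1 to replicated DNA, read 14.30 and 14.35 on H19-labelled arrays, 14.23 and 14.21 on Igf2-labelled arrays, 14.02 and 14.02 on parthenogenetic arrays, and 13.91 and 14.35 on normal arrays in its brighter probe. The modified lines lay above the parthenogenetic arrays, and all 3 groups lay within the span of the normal arrays. On H19-labelled arrays it rose by 0.31 against parthenogenetic arrays (SE 0.07, limma adjusted p = 0.018). On Igf2-labelled arrays the change was 0.20 (95% interval 0.03 to 0.37, adjusted p = 0.129).

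The 2 Uhrf1 probes, annotated to the same transcript, both put the H19-labelled above the Igf2-labelled arrays and placed the Igf2-labelled arrays differently against the parthenogenetic ones. The dimmer probe read 7.44 and 7.68 on H19-labelled arrays, 6.99 and 6.97 on Igf2-labelled arrays, 7.06 and 7.0 on parthenogenetic arrays, and 6.84 and 7.15 on normal arrays. Unnormalized, it ran between 216 and 281 units, not far above the array medians of 172.1 to 196.7 units. The H19-labelled arrays stood above all others in it, with a change of 0.54 against parthenogenetic arrays (SE 0.10, limma adjusted p = 0.00793) and 0.58 against Igf2-labelled arrays (SE 0.10, adjusted p = 0.0103). The brighter probe changed by 0.10 in the last comparison (95% interval -0.06 to 0.27, adjusted p = 0.337). Without background correction the dimmer probe's change against parthenogenetic arrays was 0.34. The rise of the brighter probe on H19-labelled arrays did not pass without either H19-labelled or either parthenogenetic array (adjusted p up to 0.0946) or with the normal arrays in the fit (adjusted p = 0.288, and 0.0889 in the dimmer probe). The dimmer probe's difference between the modified lines did not pass without Igf2-labelled replicate 2 (adjusted p = 0.0559) or with the normal arrays in the fit (0.197).

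Dnmt1, the maintenance methyltransferase, read 11.82 and 11.81 on H19-labelled arrays, 11.62 and 11.52 on Igf2-labelled arrays, 11.62 and 11.63 on parthenogenetic arrays, and 11.55 and 11.94 on normal arrays. Its change on H19-labelled arrays was 0.19 against parthenogenetic arrays (95% interval 0.01 to 0.37, limma adjusted p = 0.0993) and 0.24 against Igf2-labelled arrays (0.07 to 0.42, adjusted p = 0.0653). Neither passed the threshold of 0.05, although the H19-labelled arrays did not overlap either group.

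The factors that act at imprinted loci, Trim28 and Ctcf, did not pass the threshold between the lines in the main fit. Trim28, the corepressor that ZFP57 brings to imprinting control regions, read 14.60 and 14.52 on H19-labelled arrays, 14.56 and 14.56 on Igf2-labelled arrays, 14.52 and 14.62 on parthenogenetic arrays, and 14.49 and 14.96 on normal arrays. The 3 groups overlapped. Its changes against parthenogenetic arrays were -0.01 on H19-labelled arrays (95% interval -0.19 to 0.18, limma adjusted p = 0.952) and -0.01 on Igf2-labelled arrays (-0.20 to 0.18, adjusted p = 0.952). Ctcf, the insulator protein, read 10.58 and 10.71 on H19-labelled arrays, 10.37 and 10.48 on Igf2-labelled arrays, 10.39 and 10.37 on parthenogenetic arrays, and 10.50 and 10.83 on normal arrays. The H19-labelled arrays did not overlap the parthenogenetic ones, with a change of 0.26 (95% interval 0.07 to 0.46) whose adjusted p of 0.0502 missed the threshold and passed under 5 of 16 other settings. Nor did they overlap the Igf2-labelled arrays, with a change of 0.22 (95% interval 0.02 to 0.42, limma adjusted p = 0.112).

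Tdg, the glycosylase of active demethylation, had group means between 9.61 and 9.80. It read 9.86 and 9.74 on H19-labelled arrays, 9.59 and 9.62 on Igf2-labelled arrays, 9.73 and 9.59 on parthenogenetic arrays, and 9.60 and 9.78 on normal arrays. Its change on H19-labelled arrays was 0.14 against parthenogenetic arrays (95% interval -0.07 to 0.34, limma adjusted p = 0.261).

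By the brightest probe of each gene, 2 of the 7 genes rose (Dnmt3l and Uhrf1) and 1 fell (Dnmt3b) on H19-labelled against parthenogenetic arrays, where 33.8% of 8733 genes passed (15.6% higher and 18.2% lower). On Igf2-labelled arrays 1 rose (Dnmt3l) and 1 fell (Dnmt3b), where 9.73% passed (5.43% higher and 4.31% lower). Between H19-labelled and Igf2-labelled arrays 0 rose and 1 fell (Dnmt3b), where 21.5% passed (8.47% higher and 13.0% lower). The count on H19-labelled against parthenogenetic arrays is near its background, and the 1 of 7 between the modified lines is not above its own. The 2 of 7 on Igf2-labelled arrays are too few to read as a departure from theirs. Groups did not overlap in 6, 3 and 6 of the 7 genes in these comparisons, against 70.3%, 55.9% and 64.8% of all genes. The median change of the 7 genes was 0.19, -0.01 and 0.11, against 0.01, -0.01 and 0.03 over all genes. The first 2 comparisons share their parthenogenetic arrays.

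**Figure D2:**
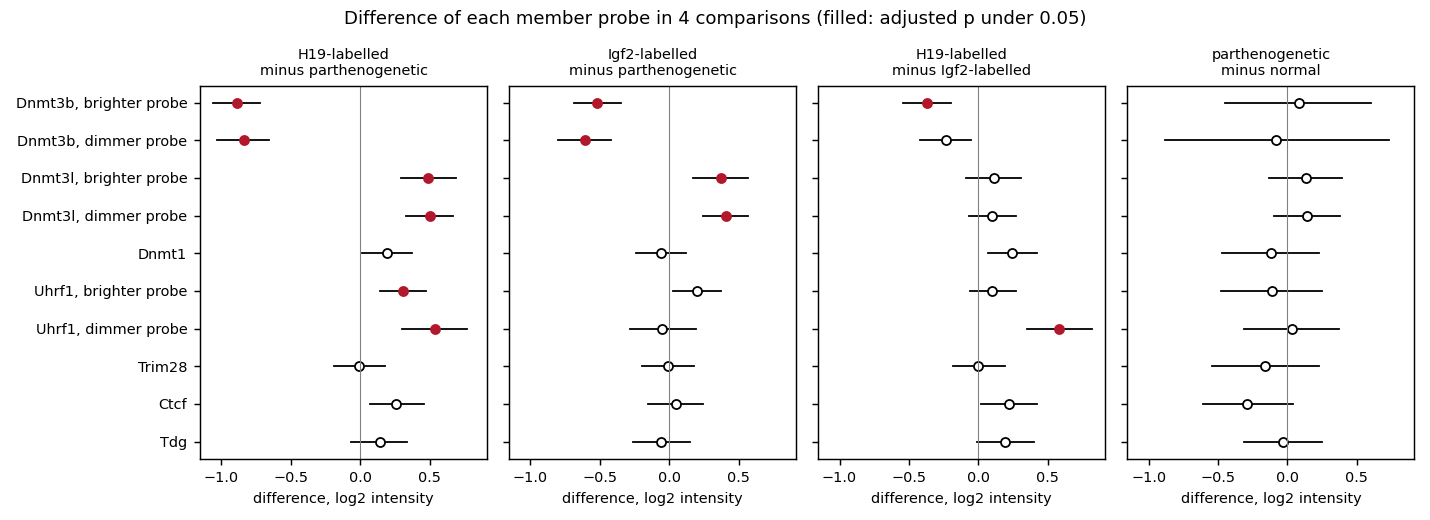
Log2 change of each of the 10 probes in the 4 comparisons, with 95% intervals from the limma fit, where filled points passed an adjusted p of 0.05. The Dnmt3b probes lie below 0 and the Dnmt3l probes above 0 in the comparisons of H19-labelled and of Igf2-labelled with parthenogenetic arrays, and no point is filled for parthenogenetic against normal.

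None of the 7 genes passed between parthenogenetic and normal arrays in limma, at an adjusted p of 0.485 or more and with 0 of 7 at an unadjusted p under 0.05, where 0.0687% of all genes passed. Ctcf had the lowest adjusted p, with a change of -0.29 (95% interval -0.61 to 0.04), and Dnmt3b changed by 0.08 (-0.45 to 0.60). Groups did not overlap in 2 of the 7 genes, Dnmt3l and Ctcf, against 36.3% of all genes. The values depended on which normal array was used. With normal replicate 2 as the only normal array, Dnmt3b changed by -0.29, Dnmt1 by -0.31, Uhrf1 by -0.34, Trim28 by -0.39 and Ctcf by -0.45. With normal replicate 1 as the only one, Dnmt3b changed by 0.44. The first 5 changes had limma adjusted p-values of 0.0156 to 0.0397 and the last 0.0918, but these fits hold no spread between normal arrays and assume that the lone array varies like the other groups, so they do not show a difference from normal ES cells.

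Set against each normal array without a test, both Dnmt3b probes were below both normal arrays on all H19-labelled and Igf2-labelled arrays. Both Dnmt3l probes were above both normal arrays on all 6 other arrays. Ctcf was below both normal arrays on the Igf2-labelled and parthenogenetic arrays. Trim28 and the brighter Uhrf1 probe lay between the normal arrays on all 6. Normal replicate 2 was above normal replicate 1 by 0.39 in Dnmt1, 0.44 in Uhrf1, 0.46 in Trim28, 0.32 in Ctcf and 0.18 in Tdg.

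Markers of other cells moved with these results. The mean over the 29 fibroblast markers with a probe, of 34 listed, was 11.01 and 11.02 on H19-labelled arrays, 11.61 and 11.63 on Igf2-labelled arrays, and 11.81 and 11.83 on parthenogenetic arrays, and all 29 were detected on each of these arrays. Against parthenogenetic arrays, 28 of 29 fell on H19-labelled arrays (median -0.83) and 3 of 29 on Igf2-labelled arrays (median -0.21), and with the normal arrays in the fit 1 and 0 passed (8 and 0 at an unadjusted p under 0.05). Leaving out 1 array gave 23 to 29 and 0 to 2 of the 29, with 0 without any 1 Igf2-labelled or parthenogenetic array in the second comparison. ES cell markers rose in 6 of 15 (median 0.20) and 4 of 15 (median 0.10), and 0 fell in either comparison. In the same comparisons 15.6% and 5.43% of all genes rose and 18.2% and 4.31% fell. With the normal arrays in the fit 0 and 0 of the 15 passed (4 and 4 at an unadjusted p under 0.05). The count of 4 was 1 to 2 without any 1 Igf2-labelled or parthenogenetic array. In bulk RNA, fewer cells of a type and less RNA per cell cannot be told apart. Dnmt3b fell on the arrays where the fibroblast markers were lower, while Dnmt3l was higher there. Normal replicate 2, with the lowest fibroblast mean of all arrays, had the highest Dnmt3b level, 13.97, and the lowest Dnmt3l level, 14.67. The part of these cells in either change was not tested.

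Genes of DNA replication, in which UHRF1 and DNMT1 act, had means over 22 genes of 11.85 and 11.86 on H19-labelled arrays, 11.53 and 11.56 on Igf2-labelled arrays, 11.55 and 11.55 on parthenogenetic arrays, and 11.46 and 11.89 on normal arrays. The H19-labelled arrays stood above the Igf2-labelled and parthenogenetic arrays in this mean. They did so too in Dnmt1, Ctcf, Tdg and both probes of Uhrf1 and of Dnmt3l, so this order was not particular to Uhrf1 and Dnmt1. Of these 22 genes, 12 rose on H19-labelled against parthenogenetic arrays (median 0.31) and 9 rose against Igf2-labelled arrays (median 0.32). On Igf2-labelled against parthenogenetic arrays 1 rose and 1 fell (median -0.01). Over all genes 15.6%, 8.47% and 5.43% rose and 18.2%, 13.0% and 4.31% fell in these comparisons. With the normal arrays in the limma fit 1 and 0 of the 22 passed in the comparisons of H19-labelled with parthenogenetic and with Igf2-labelled arrays (4 and 7 at an unadjusted p under 0.05). Without either H19-labelled array the counts were 6 in the first comparison and 1 to 2 in the second. They were 7 without parthenogenetic replicate 1 in the first, and 5 and 3 without Igf2-labelled replicates 1 and 2 in the second. Normal replicate 2 exceeded normal replicate 1 by 0.43 in this mean, and by 1.16 in the mean of 8 endoderm markers. Their part in the members' levels was not tested.

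**Figure D3:**
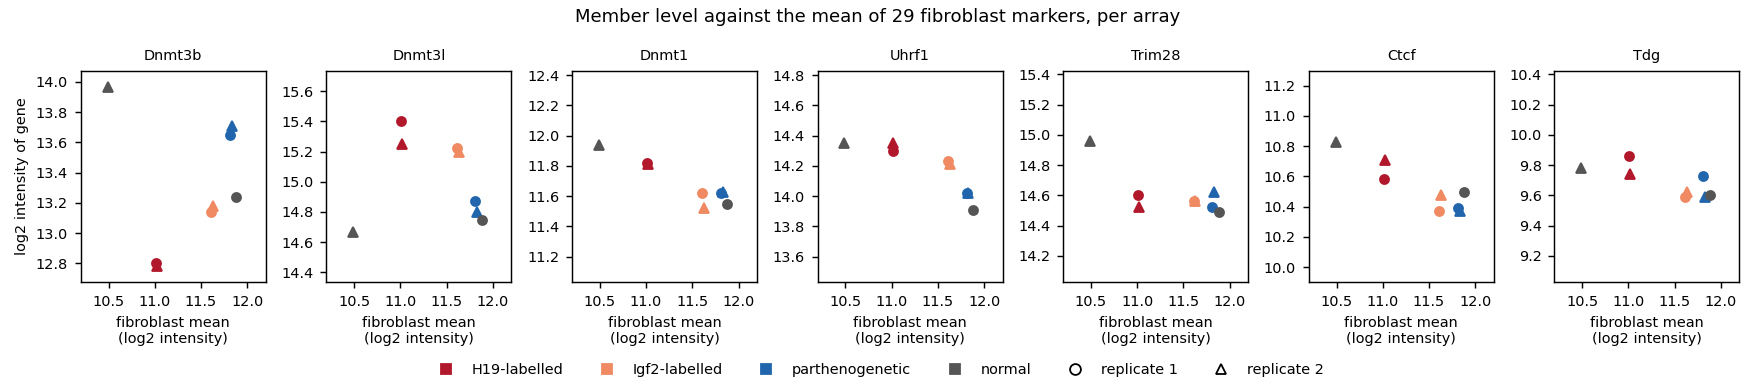
Log2 intensity of each of the 7 genes (brightest probes) on each of the 8 arrays against the mean log2 intensity of the 29 fibroblast markers on the same array, with 1 panel per gene and 1 point per array. The H19-labelled arrays sit at the left of the Igf2-labelled and parthenogenetic arrays, and normal replicate 2 lies at the far left at 10.49, with the highest Dnmt3b and the lowest Dnmt3l.

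Over the 8 arrays, the genes whose profile was most like that of Dnmt3b by Pearson correlation were Sh3gl2 (0.988), Arhgef3 (0.985) and Slc27a2 (0.985). Those most like Dnmt3l were C1galt1 (0.984), Paip2b (0.983) and Pdia4 (0.983). Of 8603 genes compared, 99 exceeded 0.9 with Dnmt3b and 168 with Dnmt3l, so these profiles were not rare, and the points share the same arrays and group differences. Slc27a2, an acyl-CoA synthetase and transporter of fatty acids, read 7.21 and 7.12 on H19-labelled arrays, 7.46 and 7.54 on Igf2-labelled arrays, 8.0 and 8.10 on parthenogenetic arrays, and 7.63 and 8.63 on normal arrays. Its arrays ranked as those of Dnmt3b did, the normal arrays included, which largely follows from its choice by correlation over the same arrays.

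Around the 10 genes, a list of 64 others that read, oxidise, repair or protect methylated DNA or build the chromatin at methylated loci held 45 with a tested probe. On H19-labelled against parthenogenetic arrays 15 rose and 2 fell (median 0.12). On Igf2-labelled arrays 7 rose and 0 fell (median 0.09). Between H19-labelled and Igf2-labelled arrays 4 rose and 3 fell (median 0.08). Over all genes 33.8%, 9.73% and 21.5% passed (15.6%, 5.43% and 8.47% higher, and 18.2%, 4.31% and 13.0% lower). The medians over all genes were 0.01, -0.01 and 0.03. The 17 of 45 that passed on H19-labelled against parthenogenetic arrays were near their background. The 7 of 45 between the modified lines were below theirs. These counts leaned on every array of the groups compared: without any 1 of them, 8 to 11 of the 45 passed in place of 17 on H19-labelled against parthenogenetic arrays, 3 to 4 in place of 7 on Igf2-labelled against parthenogenetic arrays, and 2 to 4 in place of 7 on H19-labelled against Igf2-labelled arrays.

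Mbd4, a glycosylase that repairs T mismatched to G at methylated CG sites, was among the largest rises. It read 9.21 and 9.16 on H19-labelled arrays, 8.82 and 8.72 on Igf2-labelled arrays, 8.09 and 8.02 on parthenogenetic arrays, and 7.80 and 8.60 on normal arrays. It rose against parthenogenetic arrays by 1.13 on H19-labelled arrays (SE 0.08, limma adjusted p = 0.000541) and by 0.71 on Igf2-labelled arrays (adjusted p = 0.0058). Cbx3, which encodes the heterochromatin protein HP1 gamma, rose by 1.17 (adjusted p = 0.00118) and 0.59 (adjusted p = 0.0337). The chromatin remodeller gene Atrx rose by 0.71 and 0.58 (adjusted p = 0.00271 and 0.0189), with its probe detected on 1 of the 2 parthenogenetic arrays.

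The Gadd45 genes, stress response genes linked to DNA repair and demethylation, did not move as a family. Gadd45g read 10.73 and 10.67 on H19-labelled arrays, 11.61 and 11.45 on Igf2-labelled arrays, 11.83 and 12.07 on parthenogenetic arrays, and 11.62 and 11.34 on normal arrays. It fell by 1.25 on H19-labelled against parthenogenetic arrays (SE 0.11, limma adjusted p = 0.000803) and by 0.83 against Igf2-labelled arrays (adjusted p = 0.00436). On Igf2-labelled against parthenogenetic arrays Gadd45g changed by -0.41 (adjusted p = 0.0655). Gadd45b rose by 0.70 (adjusted p = 0.00441) and Gadd45a by 0.49 (adjusted p = 0.0128) in that comparison. Both also rose on H19-labelled against parthenogenetic arrays, Gadd45b by 0.44 (adjusted p = 0.00449) and Gadd45a by 0.48 (adjusted p = 0.00355). Arid4a and Nipbl, a chromatin factor and the cohesin loader, rose on H19-labelled arrays by 0.70 (adjusted p = 0.0118) and 0.57 (adjusted p = 0.00183), although the other Nipbl probe changed by 0.30 (adjusted p = 0.11).

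Dppa3, whose protein shields maternal methylation from oxidation in the mouse zygote and limits UHRF1 on chromatin, separated the lines. It read 8.55 and 8.64 on H19-labelled arrays, 9.70 and 9.51 on Igf2-labelled arrays, 8.83 and 8.68 on parthenogenetic arrays, and 9.13 and 9.20 on normal arrays. It rose by 0.86 on Igf2-labelled against parthenogenetic arrays (SE 0.10, limma adjusted p = 0.00716), and on H19-labelled arrays its change was -0.16 (adjusted p = 0.281). The H19-labelled arrays were lower than the Igf2-labelled arrays by a change of -1.01 (adjusted p = 0.00218). Setdb1, the histone methyltransferase that TRIM28 recruits, had changes of -0.05 and -0.12 against parthenogenetic arrays on H19-labelled and Igf2-labelled arrays (adjusted p = 0.689 and 0.407). Tet2, Tet3 and Hells had no probe named to them here.

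**Figure D4:**
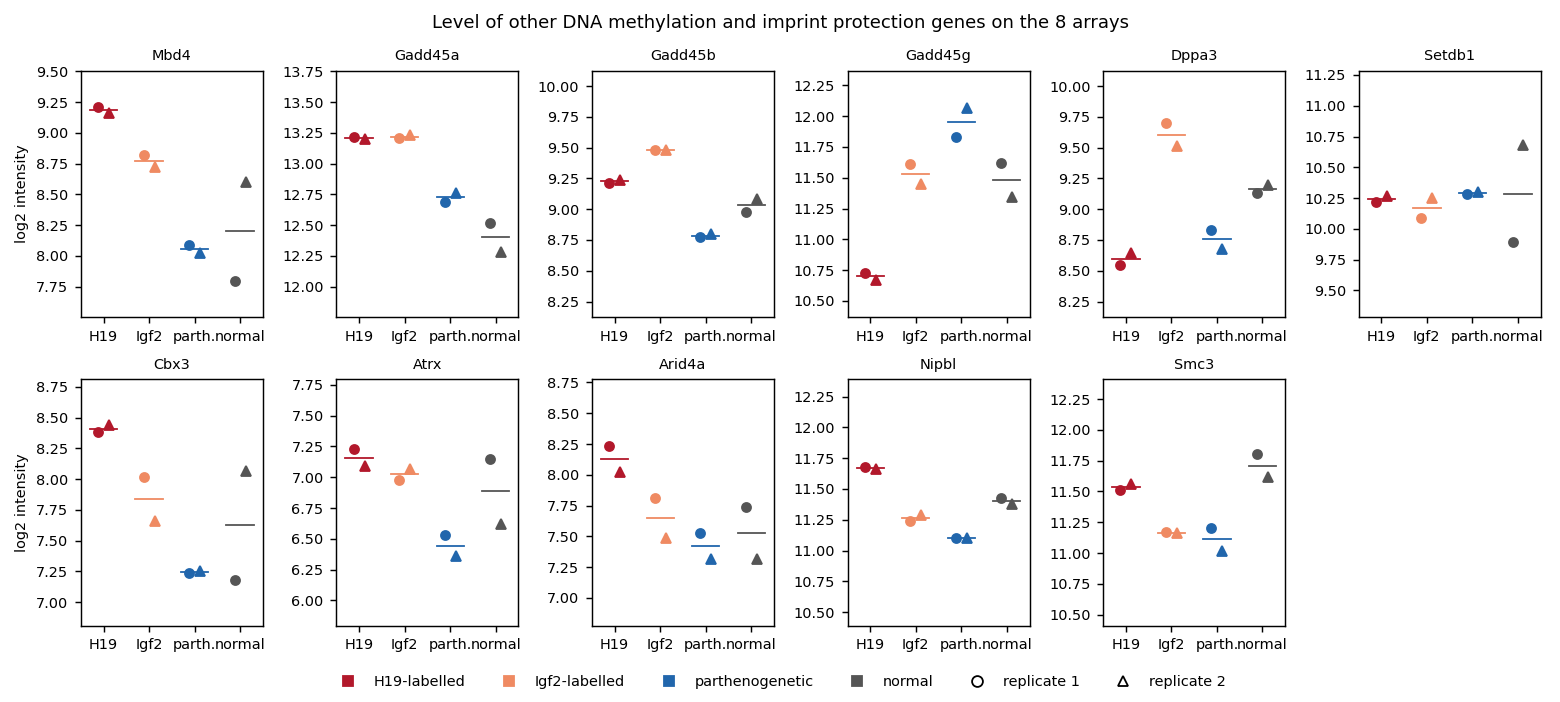
Log2 intensity of Mbd4, Gadd45a, Gadd45b, Gadd45g, Dppa3, Setdb1, Cbx3, Atrx, Arid4a, Nipbl and Smc3 on each of the 8 arrays, with points for arrays (1 panel per gene) and bars for group means. Gadd45g is lowest on the H19-labelled arrays, Dppa3 highest on the Igf2-labelled arrays, and Mbd4 higher in both modified lines than in parthenogenetic arrays.

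Germ cell genes and genes at imprinted loci were followed in 2 lists, which were chosen with their earlier results known and so do not support a direction. Of 14 tested germ cell genes with methylated promoters in somatic cells, 11 rose and 1 fell on H19-labelled against parthenogenetic arrays (median 1.44), and 10 rose and 1 fell on Igf2-labelled arrays (median 0.81). Between H19-labelled and Igf2-labelled arrays 8 rose and 3 fell (median 0.6). Over all genes 15.6%, 5.43% and 8.47% rose and 18.2%, 4.31% and 13.0% fell in these comparisons. Dazl, an RNA-binding protein of germ cells, read 9.90 and 9.96 on H19-labelled arrays, 8.95 and 9.02 on Igf2-labelled arrays, 7.83 and 7.75 on parthenogenetic arrays, and 8.63 and 9.64 on normal arrays, with changes of 2.14 and 1.20 (limma adjusted p = 0.000134 and 0.00115). Its order over the modified and parthenogenetic groups was the reverse of that of Dnmt3b, whereas normal replicate 2 was the higher normal array in both. That order was not shared by the whole list. Rhox9 and Rhox6 changed by -1.18 and -0.85 on H19-labelled against Igf2-labelled arrays (limma adjusted p = 0.00238 and 0.00302). Asz1, a germ cell gene of the piRNA pathway, and Sohlh2, a germ cell transcription factor, rose by 1.64 and 1.74 on H19-labelled arrays (adjusted p = 0.000341 and 0.000331).

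Of 20 tested genes at imprinted loci, 1 rose and 11 fell on H19-labelled against parthenogenetic arrays (median -0.28), and 6 rose and 3 fell on Igf2-labelled arrays (median -0.06). Between H19-labelled and Igf2-labelled arrays 0 rose and 12 fell (median -0.39, or -0.35 with undetected probes at their bound). Over all genes 15.6%, 5.43% and 8.47% rose and 18.2%, 4.31% and 13.0% fell in these comparisons. Cdkn1c and Phlda2, maternally expressed growth regulators on chromosome 7, had changes of -1.56 and -1.23 on H19-labelled arrays (limma adjusted p = 0.000332 and 0.000442) and of -0.99 and -1.43 on Igf2-labelled arrays (adjusted p = 0.0031 and 0.000527). The paternally expressed gene Snrpn read 8.89 and 9.09 on H19-labelled arrays, 11.44 and 11.42 on Igf2-labelled arrays, 9.16 and 9.24 on parthenogenetic arrays, and 13.14 and 13.38 on normal arrays. It rose by 2.23 on Igf2-labelled against parthenogenetic arrays (adjusted p = 0.000242), and its other probe by 1.35 (adjusted p = 0.00119). Mest, Peg3 and Peg10, also paternally expressed, rose there by 2.60, 1.39 and 1.34 (adjusted p = 0.000218, 0.00179 and 0.0173). These 3 were detected on 0 parthenogenetic arrays, so the sizes of their rises are uncertain. The paternally expressed Ndn and Igf2 did not rise, with changes of -0.24 and -0.05 (adjusted p = 0.0959 and 0.723). With the normal arrays in the fit, 2, 9 and 4 genes of the 45, 14 and 20 passed on H19-labelled against parthenogenetic arrays, 2, 3 and 3 on Igf2-labelled against parthenogenetic arrays, and 1, 1 and 2 on H19-labelled against Igf2-labelled arrays. On Igf2-labelled against parthenogenetic arrays the germ cell count was 6 in place of 11 without parthenogenetic replicate 2, and the imprinted count was 5 in place of 9 without Igf2-labelled replicate 2 or parthenogenetic replicate 2.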

How the data were processed

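Total RNA of 8 mouse ES cell samples was measured on Illumina bead arrays. The deposited intensity values had not been normalized, and each came with a detection p-value, per the file headers. A deposited log2 table of 12690 probes, with a median of 9.55 on every array, served as an alternative. How that table was normalized is not stated in the labels or headers.

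The function neqc of limma 3.58.1 (R 4.3.3) corrected the background, added an offset of 16, normalized by quantiles and took log2. Probes entered the tests where both arrays of 1 or more groups had a detection p-value under 0.05, 12932 in all. Group means were fitted with lmFit and eBayes. The comparisons among H19-labelled, Igf2-labelled and parthenogenetic arrays used those 6 arrays (3 residual and 3.29 prior degrees of freedom), and parthenogenetic against normal used all 8 (4 and 2.81). P-values were Benjamini-Hochberg adjusted over all probes tested, with a threshold of 0.05. Printed standard errors and intervals are those of the moderated fit.

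Gene names came from the platform annotation, which names 11960 of 25697 probes, and the brightest probe on average stood for a gene. All member probes are reported. Of each other list, up to 6 genes per comparison with the largest change past the threshold could be named, with Dppa3, Tet2, Tet3, Hells and Setdb1 in any case. The members, the lists and the fit without the normal arrays were chosen with earlier results of these data known. The moderated test was checked on simulated data. The alternatives were the fit on all 8 arrays or on the groups compared, other background corrections, scaling, filters and prior, the authors' log2 table, the replicate number as a block, and leaving out each array, which takes a group's spread from the remaining groups. The number of arrays limits the precision.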

Additional observations from a re-analysis of the deposited data

How the results depend on the processing

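Counts of changed probes depended most on whether the normal arrays, which differ widely from each other, shared the estimate of spread. With all 8 arrays in the limma fit, H19-labelled against parthenogenetic had 563 probes past the threshold in place of 4288, Igf2-labelled against parthenogenetic 70 in place of 1254, and H19-labelled against Igf2-labelled 26 in place of 2663. The 7 member genes then gave 0, 0 and 0 calls by their brightest probes in place of 3, 2 and 1, with 2, 1 and 0 of them at an unadjusted p under 0.05. Leaving out each array gave 2792 to 4039, 264 to 874 and 1197 to 2271 probes in these comparisons (lowest without H19-labelled replicate 2, Igf2-labelled replicate 2 and H19-labelled replicate 2), and 2 to 3, 0 to 1 and 0 to 1 member genes. For parthenogenetic against normal it gave 3 to 5193 probes in place of 14 (leaving out normal replicate 1 gave 5193, normal replicate 2 gave 113, and each parthenogenetic array 3) and 0 to 5 member genes in place of 0. Dnmt3b reversed there without normal replicate 1, at -0.29 in place of 0.08 (0.44 without normal replicate 2). The cause was not tested.

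With a trended and robust prior, 5, 3 and 3 member genes passed, and 2062 probes in Igf2-labelled against parthenogenetic. In that comparison 1 member gene passed with only the groups compared in the fit, with median centring and with no detection filter, since Dnmt3l lost its call. Between H19-labelled and Igf2-labelled arrays 2 member genes passed without background correction, with normexp at an offset of 50 and in the authors' log2 table. For parthenogenetic against normal, 0 probes passed with only the groups compared (519 at an unadjusted p under 0.05), 2 with probes detected on all 8 arrays and 8 in the authors' log2 table. All called member probes kept their direction under all 16 alternatives in the comparisons among the modified and parthenogenetic lines. The median change of all probes lay between -0.024 and 0.03 under both scalings.

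Same-numbered arrays of different groups deviated together only weakly (correlations of -0.026 to 0.173), so the numbers were not taken to pair the arrays. With the replicate block 4239, 1070, 2486 and 12 probes passed in the 4 comparisons, and 1 member gene in place of 2 in Igf2-labelled against parthenogenetic (Dnmt3l, adjusted p = 0.0501). The block changed no other call of a member.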
